A study of Mus musculus with 9 samples.

Results

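A set of 33 genes of mitosis was followed through RNA sequencing of primary mouse articular chondrocytes, the cells of joint cartilage. The members were a fixed list of gene symbols, and all 33 were matched among the 55450 genes listed in each of the 9 files. The list runs from the cyclins and kinases that start mitosis to the proteins that cut the cell in 2. It was not chosen by a threshold on these values, but earlier results of these data were known when it was chosen. Of the 33, 32 reached at least 1 FPKM (fragments per kilobase of exon, scaled to the size of the library) in at least 3 libraries and were tested. Cenpf did not, and its values are given without a test.

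The cells came from mice whose strain and age are not in the labels, and were grown at 3% oxygen in DMEM with 10% serum. Before treatment, every group was exposed to hyaluronidase (4 U/mL, 4 h, without serum). The vehicle group then received PBS for 24 h and DMSO for 5 days. The bleomycin group received bleomycin at 50 µg/mL for 24 h, was washed, and was kept in DMSO for 5 days. The bleomycin plus ST045849 group received the same bleomycin and then ST045849 at 20 µM for 5 days, with medium renewed every 48 h in all groups. Bleomycin breaks DNA, and ST045849 inhibits O-GlcNAc transferase, which attaches N-acetylglucosamine to nuclear and cytoplasmic proteins. Each group had 3 libraries, and whether they came from separate animals or cultures is not in the labels, so p-values measure the spread between these libraries, which may be technical. No group with ST045849 and no bleomycin was analysed here. The question was how the RNA of the mitotic machinery stood 5 days after DNA damage, and whether inhibition of O-GlcNAcylation was accompanied by a different level.

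Mitotic genes are transcribed late in the cell cycle, in G2 and M phase, and are held down in resting cells. In cycling cells B-MYB and FOXM1 join the MuvB complex at their promoters. In arrested cells the same MuvB core joins p130 and E2F4 as the DREAM complex and represses them, a step that p53 promotes through p21. DREAM and MuvB reach these promoters through the cell cycle genes homology region (CHR), often together with CCAAT boxes bound by NF-Y. In bulk RNA, fewer dividing cells and less RNA per dividing cell cannot be told apart.

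The promoters of the members share these letters. Among the 33 genes, 28 had an entry in the RefSeq promoter table (GRCm38.p6, 250 bases before to 50 after the annotated start), and Aurkb, Ccna2, Foxm1, Kif20a and Tpx2 did not. The CHR letters TTTGAA or TTTAAA, on either strand, were present in 25 of 28 (89.3%), against 30.6% of all 27025 genes in the table. TTTGAA alone was present in 22 of 28 (78.6%, against 20.2%), and TTTAAA in 8 (28.6%, against 14.9%). CCAAT, on either strand, was present in 22 of 28 (78.6%, against 41.1%), and at 2 or more positions in 15 (53.6%, against 13.3%). Both TTTGAA and CCAAT were present in 19 (67.9%, against 8.97%). TTTGAA lay within 50 bases of the start in 20 of 28 (71.4%, against 5.72%), a distance chosen after the positions were seen. In 1 promoter, that of Cdca8, the CHR letters overlapped a CCAAT. A match describes the sequence and does not show that a factor is bound.

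The promoter stretches of 5 members are printed because they pair both kinds of letters just before the start. With ST045849 the mean FPKM of Cdk1, Ube2c and Cdc20 stood above or close to bleomycin alone, and that of Top2a and Kif11 lower. None of these differences passed (limma adjusted p from 0.259 to 0.945), and only for Cdk1 did the groups lie apart. With the length trend removed Cdc20 (-0.34) and Ube2c (-0.18) were lower too. A link between promoter letters and these levels was not tested. Each stretch covers the 110 bases that end at the base before the annotated start. Capitals mark the longer motif, TTTGAA, wherever it occurs on either strand, and the shorter one, CCAAT, in the same way. A match on the other strand reads as the reverse complement.
Cdk1, chr10:69352913-69353022, minus strand: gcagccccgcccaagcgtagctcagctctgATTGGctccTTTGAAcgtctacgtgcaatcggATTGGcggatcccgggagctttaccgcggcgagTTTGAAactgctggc
Top2a, chr11:99024190-99024299, minus strand: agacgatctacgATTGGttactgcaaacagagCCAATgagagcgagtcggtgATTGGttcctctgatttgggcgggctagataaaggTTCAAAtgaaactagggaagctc
Kif11, chr19:37376272-37376381, plus strand: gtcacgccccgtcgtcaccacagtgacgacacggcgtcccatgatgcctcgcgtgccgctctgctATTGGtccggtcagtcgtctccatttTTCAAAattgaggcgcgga
Cdc20, chr4:118437344-118437453, minus strand: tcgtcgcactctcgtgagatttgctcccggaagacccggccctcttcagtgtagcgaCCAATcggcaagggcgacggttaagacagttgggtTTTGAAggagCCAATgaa
Ube2c, chr2:164769819-164769928, plus strand: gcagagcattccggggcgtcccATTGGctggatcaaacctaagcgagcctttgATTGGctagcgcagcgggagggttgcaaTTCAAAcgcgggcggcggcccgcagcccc

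In these stretches the CHR letters nearest the start began at base -15 in Cdk1, -23 in Top2a, -19 in Kif11, -18 in Cdc20 and -29 in Ube2c, where -1 is the base before the start. A CCAAT or its complement lay upstream of each. Cdk1 held the CHR letters a second time, from base -71. Mki67 carried TTTGAA only farther out, from bases -116 and -98, and Ccnb1 carried TTTAAA from base -42 with CCAAT from -99 and -67. Nuf2 and Nusap1 held neither kind of letters in the window.

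**Figure D1:**
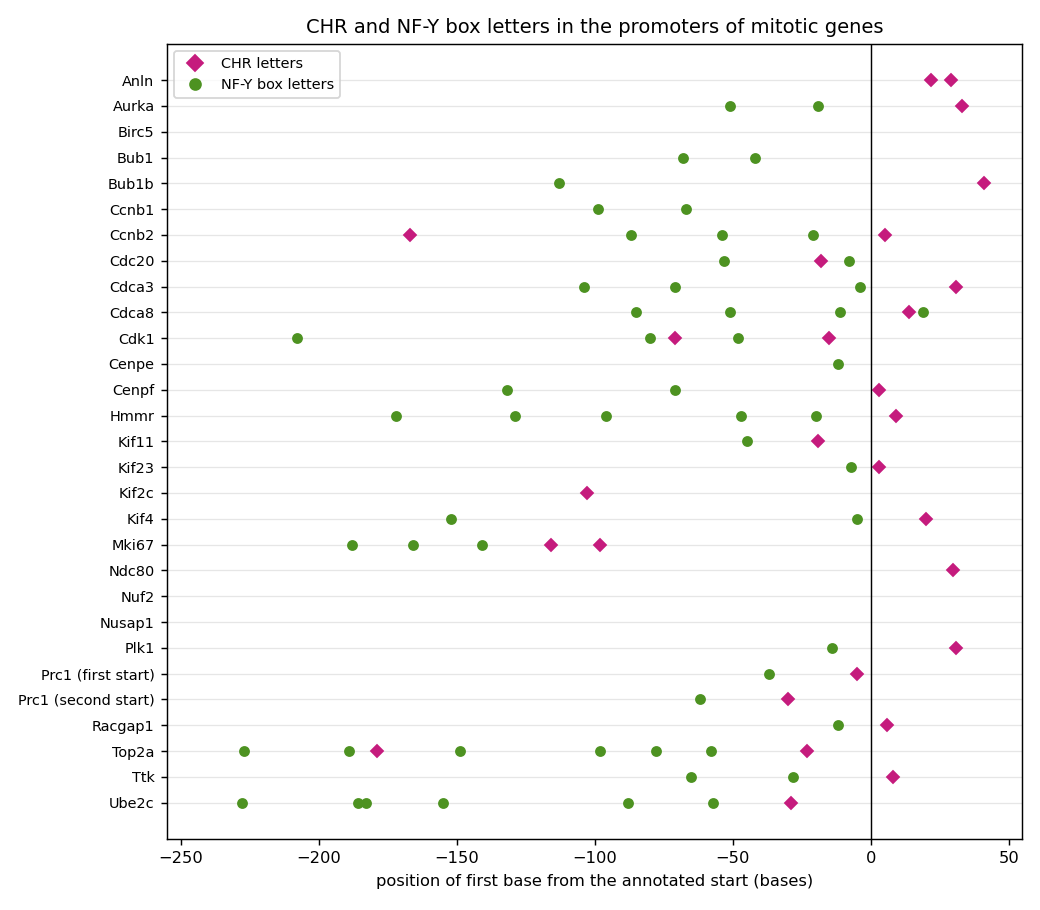
Positions of the CHR letters (TTTGAA, diamonds) and of the NF-Y box letters (CCAAT, circles), on either strand, in the promoters of the 28 members in the RefSeq table, with the distance of the first base from the annotated start in bases on the horizontal axis. Prc1 has an entry for each of 2 annotated starts and is counted once. At least 1 diamond lies within 50 bases of the start in 20 of the 28 genes, and most circles lie before it.

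The genes differed widely in level, which FPKM allows to be compared per length. In vehicle libraries Ube2c, the ubiquitin-conjugating enzyme of the anaphase-promoting complex, stood highest at 16 ± 6.38 FPKM (mean ± SD, n = 3 here and in all group means below). Top2a, which untangles DNA, followed at 13.1 ± 2.56 and Birc5 (survivin) at 11 ± 4.97 FPKM. Neighbours in this order did not differ beyond their spread. At the other end stood the large kinetochore proteins Cenpe (1.12 ± 0.579 FPKM) and Cenpf (0.544 ± 0.353 FPKM), with Kif4, Ttk and Foxm1 between 1.3 and 1.51 FPKM. None of the members was listed at 0 in any library.

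**Figure D2:**
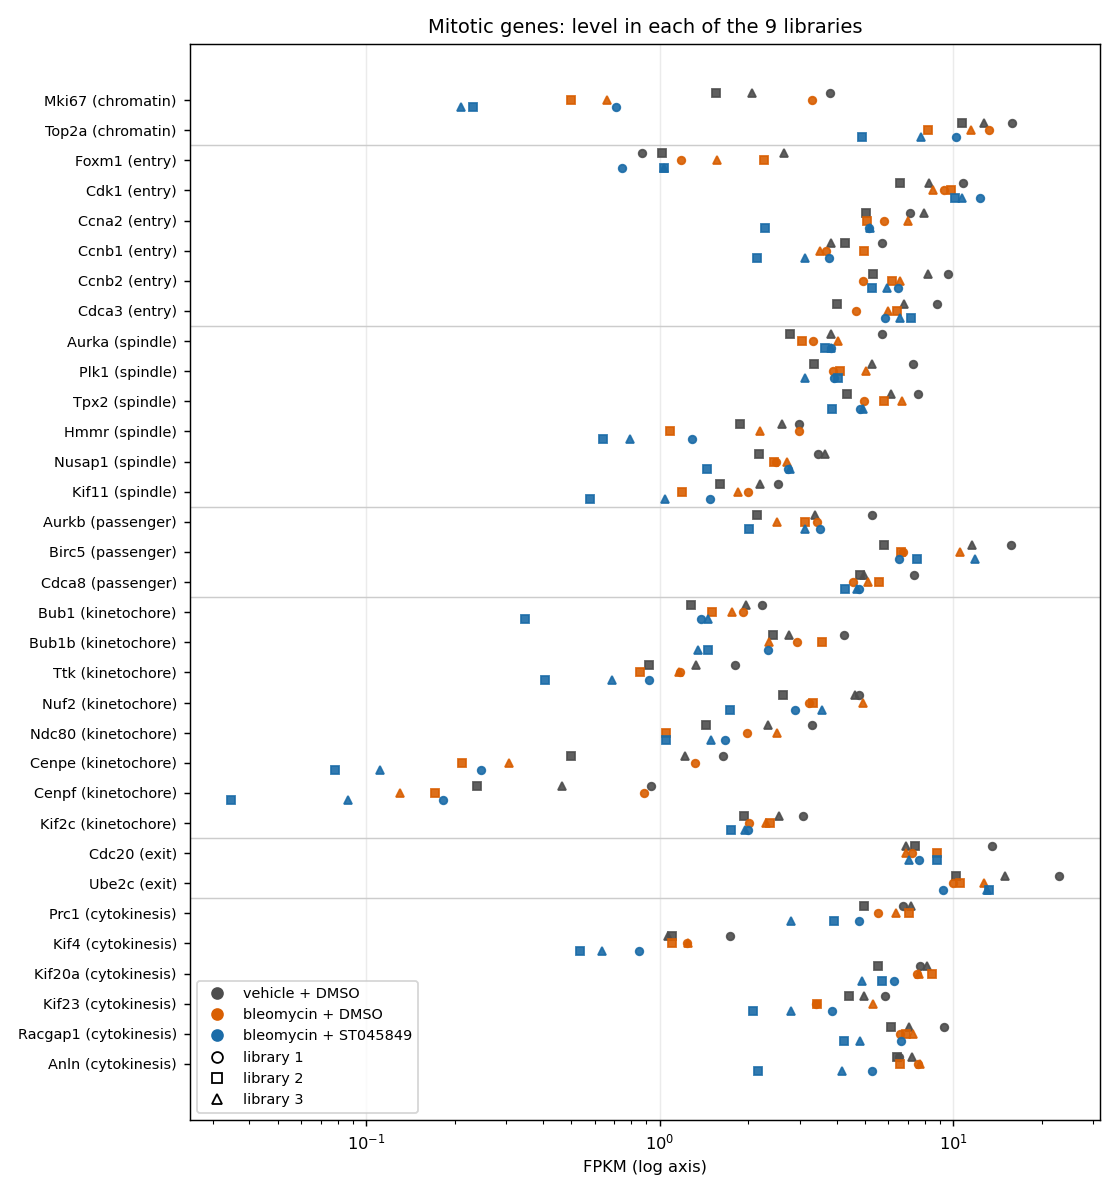
Level of each of the 33 mitotic genes in each library in FPKM on a log axis, with colour for the group and marker shape for the library number, and genes ordered by role. Vehicle library 1 holds the highest value for 24 genes, and the blue points of the ST045849 group lie mostly lowest for the kinetochore and cytokinesis genes.

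Libraries differed as a whole over these genes. The mean log2(FPKM + 1) over the 33 genes was 2.65, 2.04 and 2.40 in vehicle libraries 1, 2 and 3. It was 2.24, 2.14 and 2.26 with bleomycin, and 2.08, 1.75 and 1.96 with bleomycin plus ST045849. Vehicle libraries thus spread above and below the bleomycin libraries, while 2 of the 3 ST045849 libraries lay below all others and its library 1 lay between vehicle library 2 and the bleomycin libraries. Vehicle library 1 was the highest of the 9 for 24 of the 33 genes (72.7%), against 5.88% of all tested genes. ST045849 library 2 was the lowest for 19 (57.6%, against 23.1% of all tested genes). Across all 12441 tested genes the libraries of a group correlated at 0.936 to 0.979. A library's deviation from each gene's mean also went with exon length, with slopes of -0.212 and -0.139 log2 units per doubling of length in ST045849 libraries 2 and 3 and -0.0719 in vehicle library 1, against 0.0186 to 0.101 in the others.

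**Figure D3:**
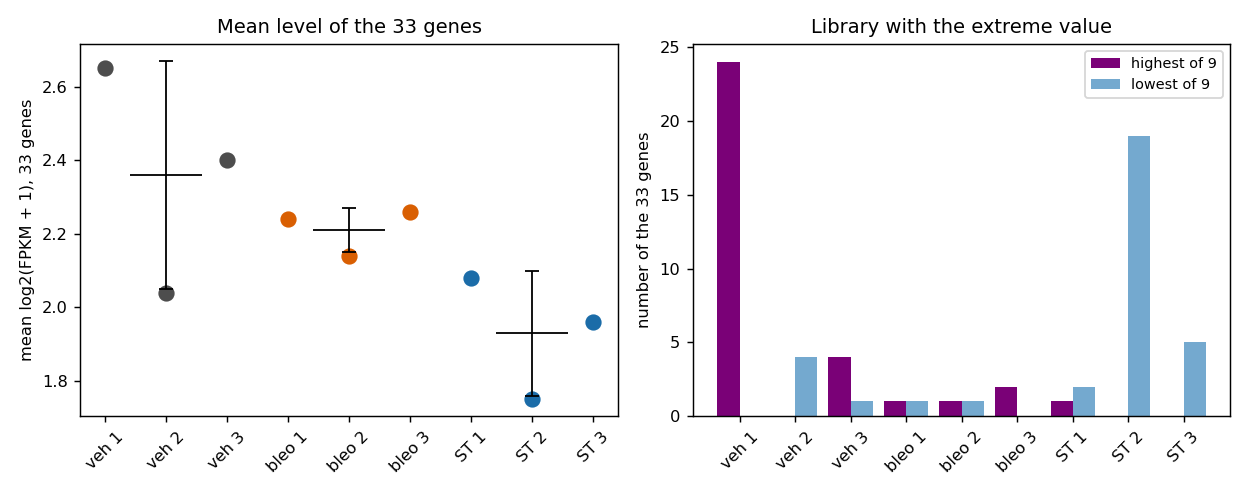
Left, mean log2(FPKM + 1) of the 33 mitotic genes in each library, with horizontal bars and whiskers for the group mean ± SD (n = 3), on an axis that does not start at 0. Right, number of the 33 genes for which a library is the highest or the lowest of the 9; vehicle library 1 is the highest for 24 and ST045849 library 2 the lowest for 19.

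The first comparison was bleomycin against vehicle. At 5 days after bleomycin the mitotic genes were still expressed, at slightly lower levels in most cases. Of the 33 genes 28 were lower and 5 higher, and the median difference was -0.15 log2 units, where all tested genes had a median of 0.1. None of the 32 tested members passed (limma adjusted p from 0.468 to 0.988), where 4.88% of all tested genes did and 0.675% fell (523 higher and 84 lower, but 353 and 144 after median-of-ratios scaling and 383 and 190 with the length trend removed), and 0 of 32 had an unadjusted p under 0.05, where 17.4% of all genes did. In none of the 33 did the groups lie apart in either direction. Among all tested genes 6.53% lay apart and lower and 21.4% lay apart and higher. The standard error of a single gene was 0.23 log2 units in the median, so that differences of the size seen here were not detectable gene by gene.

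Much of that difference came with vehicle library 1. Without it the median of the 33 was 0.01, and 15 of the 31 members then tested were lower. With all 9 libraries, 30 of 32 tested members were lower after median-of-ratios scaling and 32 of 32 with the length trend removed. The medians of the 33 were then -0.25 and -0.28, where all tested genes had -0.02 and -0.03. Between libraries with equal numbers, which were not treated as paired here, 30 of 33 genes were lower in bleomycin library 1 than in vehicle library 1. In library 2 this held for 9 genes and in library 3 for 22. Of all tested genes 47.5%, 32.2% and 36.0% were lower in libraries 1, 2 and 3.

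Among the proliferation markers, Mki67, which encodes the Ki-67 coat protein of mitotic chromosomes, was measured at 3.81, 1.55 and 2.06 FPKM in vehicle libraries and at 3.3, 0.499 and 0.659 FPKM with bleomycin. Bleomycin library 1 thus stayed at the vehicle level and the other two lay below every vehicle library. The change was -0.6 ± 0.38 (log2 ± SE, limma adjusted p = 0.476), the lowest of the 33. Cenpe and Cenpf showed the same arrangement, with Cenpf at 0.931, 0.238 and 0.464 FPKM in vehicle and at 0.883, 0.171 and 0.13 FPKM in bleomycin libraries. Top2a was measured at 15.8, 10.7 and 12.7 and then at 13.2, 8.19 and 11.5 FPKM, with overlapping groups.

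For the genes of mitotic entry the differences lay between -0.31 and 0.14. Cdk1, the kinase that drives entry, was measured at 10.8, 6.56 and 8.27 FPKM in vehicle and 9.29, 9.79 and 8.5 FPKM in bleomycin libraries, a change of 0.12 ± 0.2 (limma adjusted p = 0.847). Its partner Ccnb1 (cyclin B1) was measured at 5.7, 4.28 and 3.84 and then at 3.69, 4.97 and 3.5 FPKM. Ccnb2 went from 7.71 ± 2.19 to 5.9 ± 0.874 FPKM and Ccna2 (cyclin A2) from 6.68 ± 1.48 to 5.96 ± 0.98 FPKM. Cdca3, which helps to trigger entry, went from 6.54 ± 2.4 to 5.68 ± 0.918 FPKM. Foxm1, the transcription factor of the programme, was measured at 0.867, 1.02 and 2.64 FPKM in vehicle and 1.18, 2.26 and 1.57 FPKM in bleomycin libraries. All of these groups overlapped.

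Spindle genes were lower in 6 of 6 cases, by -0.22 to -0.02 log2 units. Tpx2, an activator of Aurora A, had 7.56, 4.34 and 6.13 FPKM in vehicle and 4.96, 5.8 and 6.7 FPKM in bleomycin libraries, so the ranges overlapped almost fully. The kinase gene Aurka stood at 4.11 ± 1.49 and 3.48 ± 0.519 FPKM. The polo-like kinase gene Plk1 stood at 5.3 ± 1.98 and 4.34 ± 0.603 FPKM. The motor gene Kif11 stood at 2.11 ± 0.472 and 1.68 ± 0.429 FPKM, Hmmr at 2.49 ± 0.56 and 2.09 ± 0.962, and Nusap1 at 3.1 ± 0.807 and 2.55 ± 0.143 FPKM.

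In the chromosomal passenger complex, which corrects faulty attachments, Birc5 was measured at 15.7, 5.78 and 11.6 FPKM in vehicle and at 6.76, 6.62 and 10.5 FPKM with bleomycin. Its spread within vehicle libraries exceeded the difference between the groups. The kinase gene Aurkb stood at 3.61 ± 1.59 and 3.02 ± 0.464 FPKM and Cdca8 (borealin) at 5.71 ± 1.41 and 5.08 ± 0.525 FPKM. For the exit genes, Ube2c was measured at 22.9, 10.2 and 15 and then at 9.95, 10.5 and 12.7 FPKM (-0.44 ± 0.27, limma adjusted p = 0.468). Cdc20, the activator of the anaphase-promoting complex, stood at 9.25 ± 3.66 and 7.64 ± 1.01 FPKM. Only vehicle library 1 exceeded every bleomycin library for Cdc20.

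Kinetochore and checkpoint genes were lower in 8 of 8 cases, with a median of -0.14. Nuf2, of the microtubule-binding NDC80 complex, had 4.78, 2.62 and 4.63 FPKM in vehicle and 3.21, 3.32 and 4.93 FPKM in bleomycin libraries. Ndc80 itself stood at 2.35 ± 0.93 and 1.84 ± 0.732 FPKM. The checkpoint kinase genes Bub1 (1.83 ± 0.486 and 1.72 ± 0.211 FPKM), Bub1b (3.14 ± 0.966 and 2.95 ± 0.602 FPKM) and Ttk (1.35 ± 0.442 and 1.06 ± 0.179 FPKM) were close in the 2 groups. Kif2c, a microtubule depolymerase, stood at 2.52 ± 0.568 and 2.23 ± 0.189 FPKM.

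Midzone and cytokinesis genes were lower in 3 of 6 cases. Kif20a, a motor of the spindle midzone, had the highest difference of all members, with 7.7, 5.54 and 8.14 FPKM in vehicle and 7.53, 8.46 and 7.65 FPKM in bleomycin libraries (0.14 ± 0.19, limma adjusted p = 0.795). The bundling protein gene Prc1 had the smallest, with 6.72, 4.97 and 7.15 and then 5.53, 7.06 and 6.36 FPKM. Anln (anillin) was measured at 6.52, 6.4 and 7.25 FPKM in vehicle and 7.55, 6.59 and 7.71 FPKM in bleomycin libraries. Racgap1 stood at 7.48 ± 1.61 and 6.92 ± 0.368 FPKM, Kif23 at 5.08 ± 0.745 and 4.05 ± 1.1, and Kif4 at 1.3 ± 0.374 and 1.2 ± 0.0825 FPKM.

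The second comparison set bleomycin plus ST045849 against bleomycin. With the inhibitor the means of all 8 kinetochore and checkpoint genes and all 6 midzone and cytokinesis genes were lower, and those of both exit genes and 3 of the 6 entry genes were higher. The difference between these roles was not tested. On the TPM scale all 33 genes were lower, and with the length trend removed both exit genes were lower too (Cdc20 at -0.34 and Ube2c at -0.18), as were Ccnb2 (-0.41) and Cdca3 (-0.05) among entry genes. Of the 33 genes 26 were lower and 7 higher, with a median of -0.34 where all tested genes had 0.06. After median-of-ratios scaling 28 of 32 were lower. On the TPM scale the median of the members was -0.65, but that of all genes also moved, to -0.19. None of the 32 tested members passed (limma adjusted p from 0.203 to 0.984), where 0.0% of all tested genes passed. An unadjusted p under 0.05 was reached by 6 of 32, all lower, where 22.5% of all genes reached it in either direction. The groups lay apart and lower in 9 of 33, against 8.67% of all tested genes, and apart and higher in 1, Cdk1, against 16.5%.

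Equal-numbered libraries of these 2 groups deviated together, so the comparison was also fitted with the replicate number as a block. In the paired fit of the 2 groups 3 of 32 members fell, where 8.0% of all tested genes fell and 19.3% were called in either direction. These were Anln (-0.82 ± 0.2), Hmmr (-0.66 ± 0.17) and Mki67 (-0.69 ± 0.2), with limma adjusted p of 0.0243, 0.0285 and 0.0397. With the trend on exon length removed in the same paired fit, 0 of 32 passed (limma; 9 had an unadjusted p under 0.05), where 1.37% of all genes did and 0.74% fell, and the block in the fit of 9 libraries called 0, with 11 at an unadjusted p under 0.05. In all 3 equal-numbered pairs 18 of the 33 genes were lower with ST045849, where 23.4% of all tested genes were, and 2, Cdk1 and Cdca3, were higher in all 3, where 36.4% of all tested genes were.

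All 6 midzone and cytokinesis genes were lower, by -0.82 to -0.36, and 4 of them lay apart, where 8.67% of all tested genes lay apart and lower. Among these 4, Kif20a, Kif4 and Prc1 share 29.3%, 15.1% and 11.1% of their exon sequence with genes on the opposite strand. Anln, which links the contractile ring to the membrane, had the lowest difference of all members: 7.55, 6.59 and 7.71 FPKM in bleomycin libraries and 5.26, 2.16 and 4.16 FPKM with ST045849. Every ST045849 library was below every bleomycin library, and library 2 was the lowest. Prc1 was measured at 5.53, 7.06 and 6.36 and then at 4.77, 3.91 and 2.8 FPKM (-0.62 ± 0.21, limma adjusted p = 0.203). Kif20a was measured at 7.53, 8.46 and 7.65 and then at 6.26, 5.72 and 4.88 FPKM. Both lay apart, as did the motor gene Kif4 (1.2 ± 0.0825 and 0.673 ± 0.161 FPKM). Without ST045849 library 1, Anln and Prc1 fell (limma adjusted p = 0.026 and 0.0423), 2 of 32 members, where 7.16% of all genes fell and 18.0% were called in either direction.

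The 8 kinetochore and checkpoint genes were lower as well, by -0.55 to -0.15. Bub1b, which encodes the checkpoint protein BubR1, went from 2.95 ± 0.602 to 1.72 ± 0.541 FPKM, and Bub1 from 1.72 ± 0.211 to 1.07 ± 0.623 FPKM. These and Kif2c lay apart, but by narrow margins. The highest ST045849 value and the lowest bleomycin value were 2.34 and 2.35 FPKM for Bub1b. They were 1.46 and 1.5 FPKM for Bub1, and 1.99 and 2.01 FPKM for Kif2c. Nuf2 was measured at 3.21, 3.32 and 4.93 and then at 2.88, 1.73 and 3.57 FPKM, with overlap. Cenpe stood at 0.613 ± 0.615 and 0.145 ± 0.0889 FPKM and Cenpf at 0.395 ± 0.423 and 0.102 ± 0.0754 FPKM, the bleomycin spread coming from library 1.

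Among spindle genes Hmmr, which encodes a microtubule-binding protein, was measured at 2.99, 1.08 and 2.2 FPKM with bleomycin and 1.29, 0.638 and 0.79 FPKM with ST045849. Each ST045849 library was lower than the bleomycin library of its number, although the groups overlapped. Tpx2 lay apart, at 4.96, 5.8 and 6.7 and then 4.8, 3.85 and 4.92 FPKM. Aurka was close in both groups (3.48 ± 0.519 and 3.77 ± 0.0997 FPKM). The proliferation markers were again lower, with Mki67 at 0.709, 0.231 and 0.21 FPKM and Top2a at 10.2, 4.87 and 7.78 FPKM with ST045849.

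Entry and exit genes differed among themselves. Cdk1 had the highest difference of the 33, with 12.3, 10.1 and 10.7 FPKM with ST045849, each above all 3 bleomycin libraries (0.24 ± 0.2, limma adjusted p = 0.451, and -0.02 on the TPM scale). Its cyclin Ccnb1 was measured at 3.78, 2.15 and 3.13 FPKM, and Ccna2 stood at 4.21 ± 1.67 FPKM, both below the bleomycin means and overlapping with them. Ccnb2 had the smallest difference, with 4.92, 6.18 and 6.59 and then 6.5, 5.3 and 5.94 FPKM. Cdca3 was measured at 4.64, 6.4 and 6 and then at 5.83, 7.17 and 6.56 FPKM. Foxm1 lay apart and lower, at 0.742, 1.03 and 1.03 FPKM. Ube2c was measured at 9.23, 13.2 and 13 FPKM and Cdc20 stood at 7.81 ± 0.889 FPKM. Birc5 was measured at 6.53, 7.5 and 11.8 FPKM. For these 3 genes the groups overlapped.

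**Figure D4:**
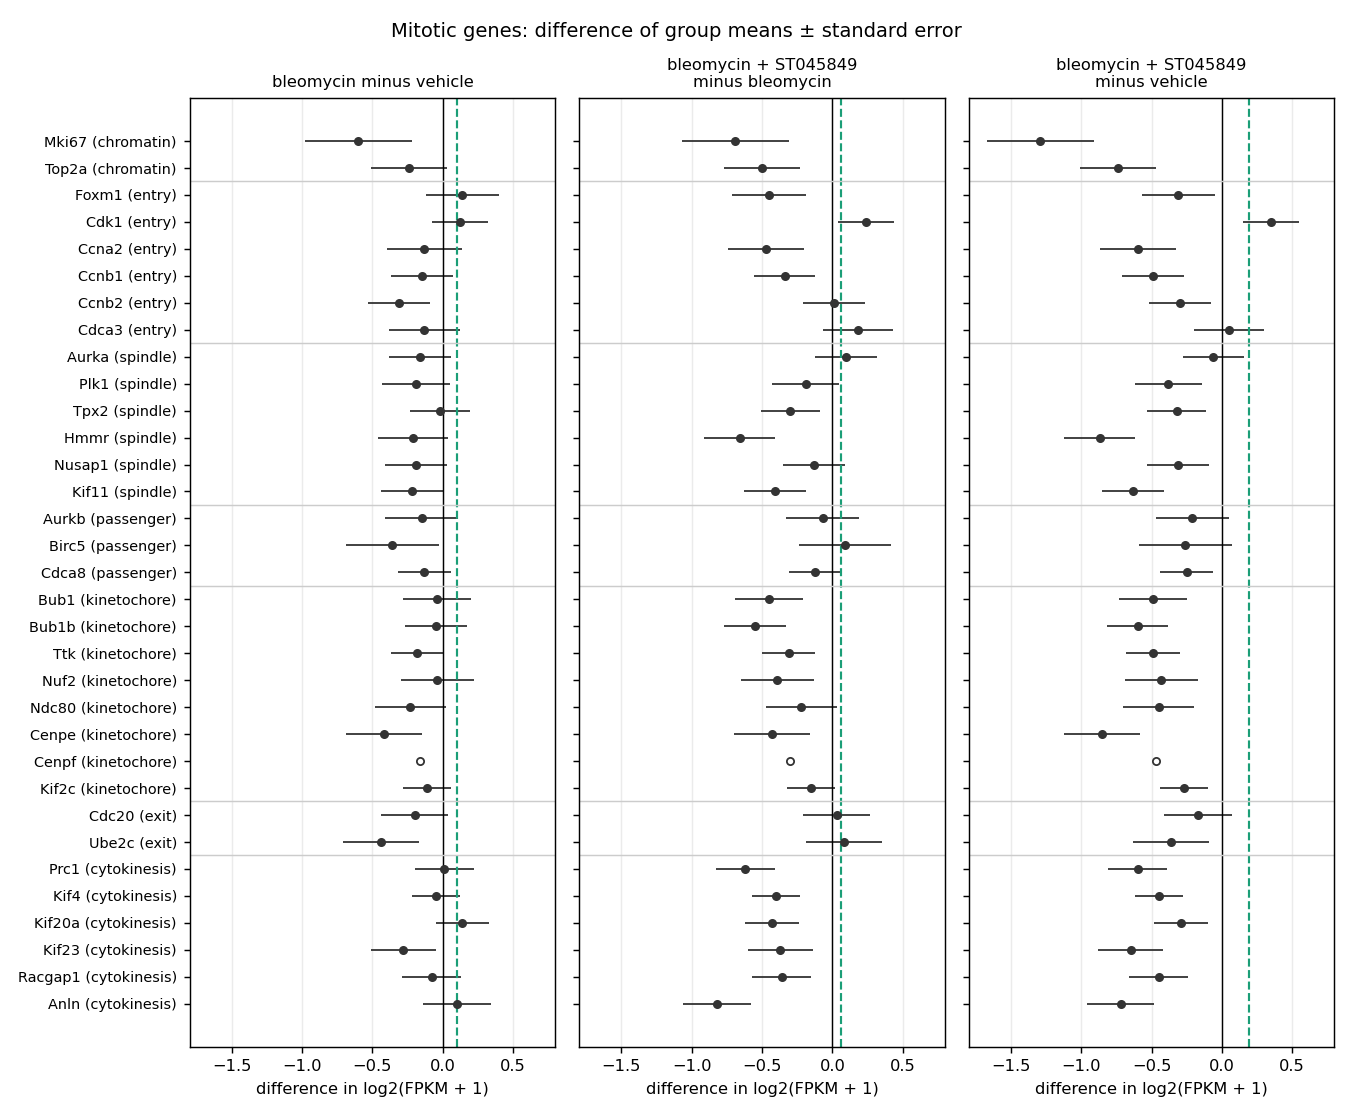
Difference of group means in log2(FPKM + 1) for the 33 mitotic genes in the 3 comparisons, with whiskers for ± 1 standard error from limma (n = 3 per group) and the open circle for Cenpf, which was not tested. The dashed line marks the median of all tested genes (0.1, 0.06 and 0.19); most mitotic genes lie to its left in each panel, and Cdk1 lies farthest right in both ST045849 panels.

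The order of these differences went with exon length. Spearman's rho between the difference and total exon length was -0.637 over the 33 members and -0.6 over 12437 tested genes, as a description, since all values share the same libraries. The 16 members with more exon sequence than the middle one, Ttk (4919 bases), had a median difference of -0.4 and the 16 with less had -0.14. All tested genes longer than that had a median of -0.23 and all shorter ones 0.26, so both classes of members lay below the genes of their length class. Once each library's trend on length was removed, 31 of 32 tested members were lower and the median of the 33 was -0.28, whereas the signs of Ube2c, Cdc20, Cdca3, Birc5, Aurka and Ccnb2 turned from higher to lower. With ST045849 libraries 2 and 3 left out, so that only library 1 with a slope of 0.0186 stood for the group, the median was -0.11 and 25 of 32 were lower. The part of length in the differences of single genes was not tested beyond these values.

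**Figure D5:**
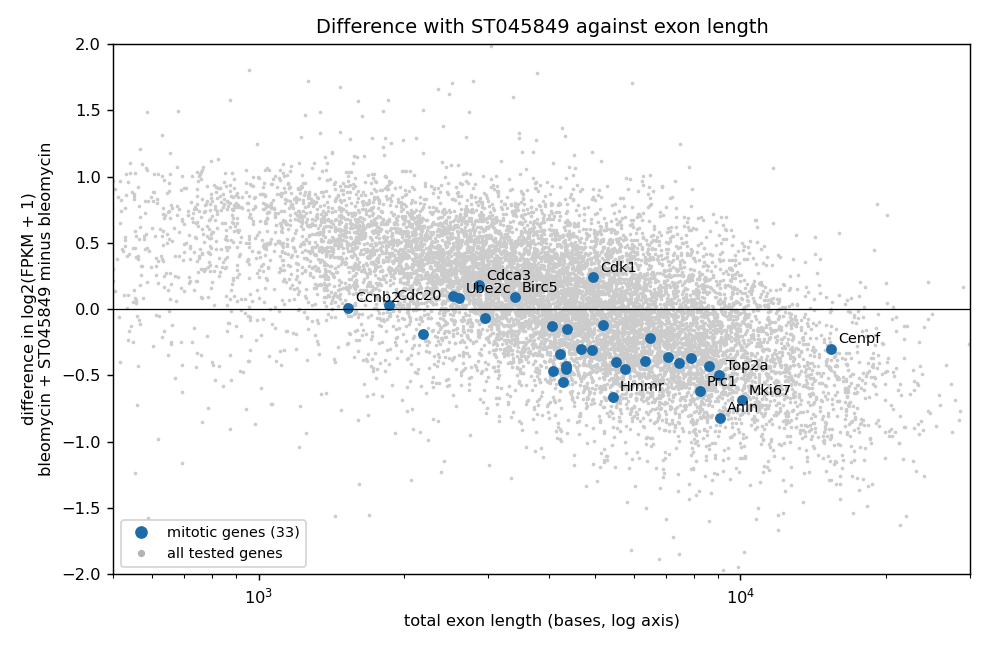
Difference in log2(FPKM + 1) between bleomycin plus ST045849 and bleomycin against total exon length in bases (log axis), for the 33 mitotic genes (blue) and all tested genes (grey). Among 12437 genes 428 lie outside the axes drawn; the mitotic genes slope down with length like the grey cloud, and Cdk1 lies above other members of its length.

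The third comparison set bleomycin plus ST045849 against vehicle. It shares its libraries with the other two, and its values are given beside them. Here 31 of the 33 genes were lower, with a median of -0.45 where all tested genes had 0.19. None of 32 passed in the fit of 9 libraries (limma adjusted p from 0.0506 to 0.912), where 9.85% of all tested genes passed and 1.74% fell. An unadjusted p under 0.05 was reached by 13 of 32, all lower, against 31.1% of all genes in either direction. The groups lay apart and lower in 14 of 33, against 6.66% of all tested genes, and apart and higher in 0 of 33, against 21.0%.

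Mki67 had the lowest difference, at 2.47 ± 1.18 FPKM in vehicle and 0.383 ± 0.282 FPKM with ST045849 (-1.29 ± 0.38, limma adjusted p = 0.0528). Hmmr had the smallest adjusted p, with 2.49 ± 0.56 and 0.906 ± 0.341 FPKM (-0.87 ± 0.25, limma adjusted p = 0.0506). Both lay just beyond the threshold of 0.05. Cenpe (-0.85 ± 0.27), Top2a (-0.74 ± 0.27), Anln (-0.72 ± 0.24) and Kif23 (-0.65 ± 0.23) followed, with limma adjusted p from 0.0671 to 0.0943. The order again went with exon length, with a Spearman's rho of -0.657 over the 33 members and -0.459 over 12437 tested genes. Members longer than Ttk had a median difference of -0.53 and shorter ones -0.31. All tested genes of these length classes had medians of -0.06 and 0.35. The part of length in this order was not tested. The other members whose groups lay apart were Ccnb1, Kif11, Cdca8, Bub1b, Ttk, Cenpf, Prc1 and Kif4. Some margins were narrow, as for Ttk, at 0.919 FPKM in the highest ST045849 library and 0.92 FPKM in the lowest vehicle library. Cdk1 (0.35 ± 0.2) and Cdca3 (0.05 ± 0.25) were the only 2 with a higher mean, and for Cdca3 the sign turned under median-of-ratios scaling, on the TPM scale and with the length trend removed. All tested genes had a median of -0.01, -0.02 and 0.01 under these settings. The calls among all genes were then 492 higher and 372 lower, 566 and 251, and 464 and 318, against 1009 and 216 in FPKM.

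Which members passed depended on the fit. With a pseudocount of 0.1 Mki67, Hmmr and Cenpe fell, where 1.69% of all genes fell. With the replicate block Mki67, Hmmr, Cenpe, Kif11 and Top2a fell, where 2.36% of all genes fell. Vehicle and ST045849 libraries of equal number were not treated as paired, since their deviations correlated at -0.519, -0.279 and 0.424. Fits of 2 groups without and with the block called Mki67 alone, where 621 and 199 of 12441 genes were called in either direction. After median-of-ratios scaling Hmmr, Kif23, Anln and Prc1 fell, where 2.99% of all genes fell, and with the length trend removed Hmmr, Plk1 and Ccnb2 fell, where 2.56% did. Without ST045849 library 1 the members that fell numbered 8, where 6.32% of all genes fell, and they were Anln, Hmmr, Kif23, Kif11, Top2a, Mki67, Prc1 and Bub1b. Leaving out bleomycin library 1 or 2 let Mki67 and Hmmr pass (2 of 31 and 2 of 32), where 1.5% and 1.77% of all genes fell and 7.96% and 7.94% were called in either direction. Without any other single library none passed.

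Further genes of mitosis were counted from a list of 69, of which 55 were tested. With bleomycin 2 rose and none fell, with ST045849 against bleomycin none passed, and with ST045849 against vehicle 3 rose and none fell. Of all 12441 tested genes 523 rose and 84 fell with bleomycin (4.88% called). Against vehicle 1009 rose and 216 fell with ST045849 (9.85% called). Their medians were -0.01, -0.07 and -0.07, against 0.1, 0.06 and 0.19 for all tested genes. Over all 69 listed genes the medians were -0.02, -0.18 and -0.17. Psrc1, a microtubule-associated protein and p53 target, rose from 8.92, 5.43 and 6.89 FPKM to 21.3, 22.2 and 21.5 FPKM with bleomycin (1.51 ± 0.21, limma adjusted p = 0.00384) and stood at 21.2, 30.3 and 21.8 FPKM with ST045849. Every treated library was above every vehicle library. Gtse1, which restrains p53 in G2, rose with bleomycin (0.95 ± 0.22, limma adjusted p = 0.0354, and up to 0.146 in leave-out fits: the call needed each bleomycin library and vehicle libraries 2 and 3). Zwint, a kinetochore protein, rose with ST045849 against vehicle (0.97 ± 0.24, limma adjusted p = 0.029, lost without vehicle or ST045849 library 2 or 3, at up to 0.121). The lamin gene Lmnb1 stood at 6.55 ± 0.903, 3.76 ± 0.851 and 3.67 ± 0.856 FPKM in the 3 groups (-0.67 ± 0.21 with bleomycin, limma adjusted p = 0.0997).

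Of 35 regulators of the mitotic programme 31 were tested, and with bleomycin 3 rose and 1 fell, where 4.88% of all tested genes were called. E2f8, a repressor of the E2F family that is itself transcribed in S phase, fell from 5.21, 4.88 and 7.26 FPKM to 1.22, 1.54 and 2.11 FPKM (-1.37 ± 0.23, limma adjusted p = 0.00733). It stood at 1.68, 0.664 and 1.21 FPKM with ST045849 (-1.65 ± 0.23 against vehicle, limma adjusted p = 0.00259). Its calls held with each of the 9 libraries left out. The p21 gene Cdkn1a rose from 140 ± 25 to 313 ± 62.3 FPKM, a call that needed each of the 6 libraries compared and also ST045849 library 3 (limma adjusted p = 0.0377, and up to 0.152 in leave-out fits). Against vehicle it stood higher still with ST045849, at 425 ± 118 FPKM (1.57 ± 0.28, limma adjusted p = 0.0072), and that call held in every leave-out fit.

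The 2 other regulators that rose with bleomycin restrain the cell cycle. Rprm (reprimo, a p53-induced G2 arrest gene) went from 0.99 ± 0.262 to 3.23 ± 0.475 FPKM (1.09 ± 0.21, limma adjusted p = 0.0146, and up to 0.0778, lost without vehicle or bleomycin library 2 or 3). Btg2, an antiproliferative p53 target, changed by 0.91 ± 0.22 (limma adjusted p = 0.0371, and up to 0.154, lost without any vehicle or bleomycin library). With ST045849 against bleomycin none of the 31 passed, and against vehicle 5 rose and 1 fell, where 9.85% of all tested genes were called. Among the 5 were Rprm (1.18 ± 0.21) and Btg2 (1.2 ± 0.22), with limma adjusted p of 0.00727 and 0.00835, and both calls held with each library left out. The others were Cdkn1a, Gadd45a and the E2F family gene E2f1. Gadd45a changed by 1.35 ± 0.25 (limma adjusted p = 0.00936, and up to 0.0525, lost without vehicle library 2). E2f1 changed by 0.76 ± 0.17 (limma adjusted p = 0.0212, and up to 0.105, lost without vehicle library 2 or 3 or ST045849 library 3). The transcription factor gene Mybl2, which encodes B-MYB, stood at 1.2 ± 0.446, 0.808 ± 0.152 and 0.509 ± 0.154 FPKM and was below the filter. E2f7 was also below it, at 0.8 ± 0.0313, 0.577 ± 0.0874 and 0.383 ± 0.155 FPKM. Lin9 of the MuvB core (0.37 ± 0.32) and Rbl1 (p107, 0.2 ± 0.22) did not pass with bleomycin (limma adjusted p = 0.644 and 0.744).

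Genes of the anaphase-promoting complex and of the preceding phases mostly did not pass, as was so for most genes. Of all tested genes 4.88%, 0.0% and 9.85% passed in the 3 comparisons. Of 21 tested genes of the anaphase-promoting complex and mitotic exit, none passed with bleomycin or with ST045849 against bleomycin, and 1, Ensa, rose against vehicle (0.71 ± 0.19, limma adjusted p = 0.0405, and up to 0.152, lost without library 2 or 3 of any group). Their medians were -0.09, 0.35 and 0.35. Of 34 tested genes of G1/S and the MCM helicase 2 rose with bleomycin and none fell. These were the D-type cyclin genes Ccnd1, from 15.5 ± 1.47 to 71.3 ± 15.5 FPKM (2.11 ± 0.21, limma adjusted p = 0.000848), and Ccnd2 (0.93 ± 0.22, limma adjusted p = 0.0352, and up to 0.139, lost without any vehicle or bleomycin library). The cyclin E gene Ccne1 rose with ST045849 against vehicle (1.13 ± 0.24, limma adjusted p = 0.017, and up to 0.0837, lost without vehicle library 2 or 3 or ST045849 library 3). The medians of the G1/S list were 0.11, 0.2 and 0.32 in the 3 comparisons, against 0.1, 0.06 and 0.19 for all tested genes. The difference between these lists and the 33 genes was not tested.

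Markers of other cells were measured beside these values. The 10 chondrocyte markers were all tested and summed to 24600 to 34700 FPKM in vehicle, 18300 to 26300 in bleomycin and 14700 to 21600 FPKM in ST045849 libraries. With ST045849 against vehicle 4 of these 10 fell (Acan, Col11a1, Col11a2 and Matn3), where 1.74% of all tested genes fell. The median over the list was -0.93, and none was called in the other comparisons. The 10 macrophage markers summed to 3.05 to 5.75, 10.9 to 12.6 and 11.9 to 18 FPKM. Of these, 3 were tested and all 3 (Lyz2, Cd68 and Cd14) rose with bleomycin and with ST045849 against vehicle, while C1qb, C1qc and Tyrobp were at 0 in all 9 libraries. The 8 fibroblast or synovial markers summed to 1700 to 2380, 2580 to 3710 and 1450 to 2850 FPKM, and 2 of the 6 tested (Thy1 and Cd34) rose in the same comparisons. In these comparisons 4.88% and 9.85% of all tested genes were called in either direction. Endothelial and erythroid markers had 0 tested members, and their sums stayed at or below 0.566 FPKM. Adipocyte markers summed to 7.14 to 17.3, 11.3 to 16.7 and 23.2 to 30.5 FPKM, where the 1 tested marker, Fabp4, rose with ST045849 against vehicle, and skeletal muscle markers to 5.17 to 5.67, 3.32 to 6.34 and 4.47 to 6.39 FPKM. The part of these cells in the levels of the mitotic genes was not tested.

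Some members overlap genes on the opposite strand, and whether strand was used in counting is not given in the sources used here. The overlap covers 29.3% of the exon sequence of Kif20a (with Cdc23), 22.8% of Ube2c (Tnnc2), 15.1% of Kif4 (Pdzd11), 12.5% of Ccna2 (Exosc9) and 11.1% of Prc1 (Rccd1). That share of sequence does not bound the effect on their values, which also depends on the level of the other gene. Over the 9 libraries Cdc23 averaged 16.8 FPKM and Kif20a 6.88 FPKM. The part of such reads in these values was not tested. In GRCm38 the members lie on many chromosomes, for example Mki67 on chromosome 7 (135689784 to 135716361), Cdk1 on chromosome 10 (69335146 to 69352938), Hmmr on chromosome 11 (40701395 to 40733422) and Anln on chromosome 9 (22332012 to 22389188).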

How the data were processed

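RNA was measured in 9 libraries of primary mouse articular chondrocytes, prepared, per the labels' protocols, by a strand-marking mRNA method. The submitters' processing notes list Trimmomatic, STAR and the build GRCm38. The authors deposited 1 FPKM value for each gene and library. Program, annotation and use of strand: not given in the sources used here. Depth per library is therefore unknown and no counting interval is given. FPKM summed to 340303 to 483953 per library, and 0 of the library pairs held identical values. Exon lengths, positions and overlaps came from GENCODE vM21 and promoters from RefSeq, both on GRCm38.

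Values were taken as log2(FPKM + 1), so fold changes of low genes are understated. The 12441 genes that reached 1 FPKM in 3 or more libraries were fitted over all 9 libraries with limma 3.58.1 in R 4.3.3, with trended moderated variances, and p-values were adjusted by Benjamini-Hochberg over all of them. Calls needed an adjusted p, always limma's, under 0.05. The medians over the 33 members are differences of group means without a test. The script was tested on simulated data.

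Deviations from the group means correlated at 0.466, 0.481 and 0.5 between equal-numbered bleomycin and ST045849 libraries, so these were treated as paired, from the data and not from a label. Vehicle and bleomycin libraries of equal number correlated at -0.0711, -0.026 and 0.546, and vehicle and ST045849 libraries at -0.519, -0.279 and 0.424, and were not treated as paired. Unequal numbers reached 0.568, so the pairing is not certain.

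Alternatives were a pseudocount of 0.1, TPM, median-of-ratios scaling, no filter, a filter on a mean of 5 FPKM, a replicate block, fits of 2 groups with and without a block, the length trend removed (loess, span 0.5) with and without a block, and leaving out each library. The fit without ST045849 libraries 2 and 3 and the distance of 50 bases in promoters were added after seeing the data. The members and lists were chosen with earlier results of these data known. All members are named, with every library's value for Mki67, Top2a, Ccnb1, Cdk1 and Foxm1, the highest member of each role, members called in the paired fit, and the extreme and smallest changes; other genes are the called list members with the smallest adjusted p and fixed regulators.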

Additional observations from a re-analysis of the deposited data

How the results depend on the processing

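None of the 32 tested members was called in the 9-library limma fit (0, 6 and 13 at an unadjusted p under 0.05 in the 3 comparisons). In bleomycin against vehicle 1 (Mki67) was called with 2 groups, the replicate block and the length trend removed, where 1048 of 12437 genes were called. In ST045849 against bleomycin 3 were called with 2 groups and the replicate block, where 19.3% of all genes were called and 8.0% fell. In ST045849 against vehicle 3 were called with a pseudocount of 0.1 (1.69% of all genes fell). Median-of-ratios scaling called 4 (2.99% fell), the replicate block 5 (2.36% fell) and removal of the length trend 3 (2.56% fell). Fits of 2 groups called 1 without the block and 1 with it, where 621 and 199 of 12441 genes were called. With 2 groups, the block and the length trend removed, 0 were called in ST045849 against vehicle, where 239 of 12437 genes were called. Leaving out 1 library gave 0 to 0, 0 to 2 and 0 to 8 called members in the 3 comparisons, and medians of -0.31 to 0.01, -0.42 to -0.19 and -0.63 to -0.3. The median was -0.65 and -0.73 on the TPM scale in the 2 ST045849 comparisons, and -0.11 in the first of them without ST045849 libraries 2 and 3. Among all genes, 607 called with bleomycin became 284 at a mean of at least 5 FPKM, 1024 with 2 groups, 1048 with the block and length trend removed and 1005 without ST045849 libraries 2 and 3. In ST045849 against bleomycin 0 became 1 without a filter, 2 at that mean, 2403 with 2 groups and the block, 2 with the length trend removed, 170 with both and 2 without libraries 2 and 3. In ST045849 against vehicle 1225 became, in that order, 651, 660, 199, 782, 239 and 159, and 621 with 2 groups. Leaving out 1 library gave 184 to 820, 0 to 2219 and 286 to 3054. Promoter shares were 89.3% for either CHR form, 78.6% for TTTGAA and 71.4% within 50 bases. 

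After median-of-ratios scaling the sign turned for Cdk1 (-0.01), Prc1 (-0.11) and Anln (-0.03) in bleomycin against vehicle; Ccnb2 (-0.07), Cdc20 (-0.05) and Ube2c (0.0) in ST045849 against bleomycin; Cdca3 (-0.15) and Lin9 (-0.03) in ST045849 against vehicle. On the TPM scale the sign turned for Tpx2 (0.0) in bleomycin against vehicle; Cdk1 (-0.02), Ccnb2 (-0.25), Cdca3 (-0.07), Aurka (-0.14), Birc5 (-0.17), Cdc20 (-0.24), Ube2c (-0.19), Psrc1 (-0.13), Rprm (-0.16), E2f1 (-0.09) and Ensa (-0.05) in ST045849 against bleomycin; Cdca3 (-0.19) and Lin9 (-0.1) in ST045849 against vehicle. With the length trend removed, with or without the block, the sign turned for Foxm1 (-0.02), Cdk1 (-0.04), Prc1 (-0.14), Kif20a (-0.01) and Anln (-0.06) in bleomycin against vehicle; Ccnb2 (-0.41), Cdca3 (-0.05), Aurka (-0.18), Birc5 (-0.06), Cdc20 (-0.34), Ube2c (-0.18), Psrc1 (-0.02), Rprm (-0.34), E2f1 (-0.01) and Ccnd2 (0.1) in ST045849 against bleomycin; Cdca3 (-0.31) in ST045849 against vehicle. Without ST045849 libraries 2 and 3 the sign turned for Nusap1 (0.07), Aurkb (0.17), Birc5 (-0.22), Ube2c (-0.23), Cdkn1a (-0.04), Psrc1 (-0.03), E2f8 (0.04), Lmnb1 (0.13), Rprm (-0.29), Btg2 (-0.11), Zwint (-0.04) and Ccnd2 (0.04) in ST045849 against bleomycin; Cdca3 (-0.09), Aurkb (0.03) and Rbl1 (0.15) in ST045849 against vehicle. The sign also turned in at least 1 fit without 1 library, with the lowest and highest values given. In bleomycin against vehicle these were Aurka (-0.36 to 0.06), Aurkb (-0.39 to 0.11), Bub1 (-0.19 to 0.06), Bub1b (-0.18 to 0.13), Cdc20 (-0.36 to 0.08), Cdca3 (-0.4 to 0.09), Cdca8 (-0.22 to 0.04), Cdk1 (-0.04 to 0.28), Foxm1 (-0.04 to 0.44), Hmmr (-0.42 to 0.05), Kif20a (-0.01 to 0.23), Kif4 (-0.12 to 0.08), Nuf2 (-0.26 to 0.08), Plk1 (-0.44 to 0.03), Prc1 (-0.12 to 0.1), Racgap1 (-0.2 to 0.06) and Tpx2 (-0.2 to 0.14). In ST045849 against bleomycin these were Aurkb (-0.19 to 0.11), Birc5 (-0.13 to 0.28), Ccnb2 (-0.1 to 0.08), Ccnd1 (-0.29 to 0.01), Cdc20 (-0.05 to 0.12), Gtse1 (-0.21 to 0.02), Lin9 (-0.56 to 0.12), Lmnb1 (-0.12 to 0.13), Nusap1 (-0.23 to 0.08), Psrc1 (-0.01 to 0.23), Rprm (-0.05 to 0.28) and Ube2c (0.0 to 0.23). In ST045849 against vehicle these were Aurka (-0.26 to 0.16), Aurkb (-0.46 to 0.04), Birc5 (-0.63 to 0.02), Cdc20 (-0.33 to 0.11), Cdca3 (-0.22 to 0.26), Lin9 (-0.19 to 0.49) and Rbl1 (-0.33 to 0.08). Of the values of single members 1732 kept direction and side of the threshold, 35 came to pass and 90 turned; for list genes these were 787, 10 and 36, and 109 no longer passed. The cause was not tested. Depth is unknown.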
